A study of Sus scrofa with 37 samples.

Results

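The glycolysis and hypoxia genes are 40 genes of glucose and lactate transport, glycolysis and its branch points, and the response to low oxygen, measured here in peripheral blood mononuclear cells (PBMC) of growing pigs. They were picked by gene name, with earlier results of these data known. The platform table of the array named a probe set for 34 of the 40, out of 13664 different genes named on the array, and where a gene had several probe sets, the one with the highest mean over all 37 arrays stood for it. HK2, ENO2, PKM, LDHA, LDHB and ADM are not named in that table and were not analysed here. A further 14 members varied too little over the arrays to pass the filter of the study (SD over 0.23 and mean over 2.5 on the log2 scale), so that 20 members were tested.

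German Landrace piglets received diets that held a low (L), a medium (M) or a high (H) level of digestible phosphorus from weaning at 28 days postnatum (dpn), and the question was how PBMC respond to the phosphorus supply. The reference group R held the 28 dpn arrays of all 19 pigs that the sample labels name, taken before the diets began (the methods of the study give a smaller number of piglets), and at 63 dpn 6 L, 5 M and 7 H pigs were sampled. The pigs had no other treatment, and both sexes were present in each diet, with 3 male and 3 female L pigs, 2 male and 3 female M pigs at 63 dpn, and 3 male and 4 female H pigs. R and the 63 dpn samples differ in age as well as in diet, so diet and age cannot be told apart in the comparison of H with R alone, and the L and M samples of the same age stand beside it throughout. Values are log2 probe set values normalised by RMA. A difference was called where both P and Storey's q of the limma test reached 0.05 or less. Markers of all 8 blood cell types looked at lay above the highest array median, among them 13 of the 15 monocyte genes with a probe set, 13 of 13 T cell genes and 11 of 11 B cell genes, but also 12 of 15 neutrophil genes and 13 of 13 erythroid genes, which a gradient for mononuclear cells should deplete. On the first principal component, with 13.8% of the variance, the H samples of pigs 12, 11 and 9 at 63 dpn had the lowest values of all arrays, and values that the 63 dpn arrays of pigs 11 and 12 moved most are also given without them.

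Glycolysis splits glucose into pyruvate in the cytosol. Glucose enters through carriers of the SLC2A family, is trapped by hexokinases and committed at phosphofructokinase, and the pyruvate is either oxidised in mitochondria or reduced to lactate, which leaves through carriers of the SLC16A family. When oxygen is short, prolyl hydroxylases no longer mark the alpha subunits of hypoxia-inducible factor (HIF) for degradation, and HIF then raises the transcription of most of these enzymes and of genes such as BNIP3 and P4HA1. In blood, monocytes and neutrophils are known to depend on glycolysis, and activated lymphocytes raise it.

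In H samples at 63 dpn, the members that moved were higher than in R. Of the 20 members tested, 2 were called in H against R, HK1 and P4HA1, both higher in H, where 2.09% of all probe sets were called and 1.77% were called higher. A further 5 members had an unadjusted P below 0.05 without reaching the q threshold, namely PFKFB2, BNIP3, PGK1, SLC2A3 and PFKFB4, and all 5 had positive differences, where 18.3% of all probe sets had such a P. Over the 20 members, 16 had a positive difference and the median was 0.18, whereas over all probe sets the median was -0.02. These counts give no independent support, because 4 of the 20 (P4HA1, PFKFB4, CA9 and PDK1) passed the SD filter only with the H samples of 63 dpn included. P4HA1, for instance, had an SD of 0.30 over all arrays and of 0.22 without those 7. In the fit without a filter, in which all 34 members were tested and 0.895% of all probe sets were called, 27 of 34 had a positive difference with a median of 0.16, and only P4HA1 was called.

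In L and M samples at 63 dpn, 0 of 20 members were called against R, where 0.0249% and 0.0178% of all probe sets were called. For L, 2 members had P below 0.05 with limma, HK1 with a difference of 0.27 and HK3 with one of -0.50, and for M 1 member, EGLN3 with a difference of -0.56, where 9.23% and 5.07% of all probe sets had such a P. With Benjamini-Hochberg adjustment or with unmoderated variances, 0 members were called in either comparison. Medians over the members were -0.00 for L and -0.08 for M. The 3 comparisons share the R arrays and are therefore not independent of each other.

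**Figure D1:**
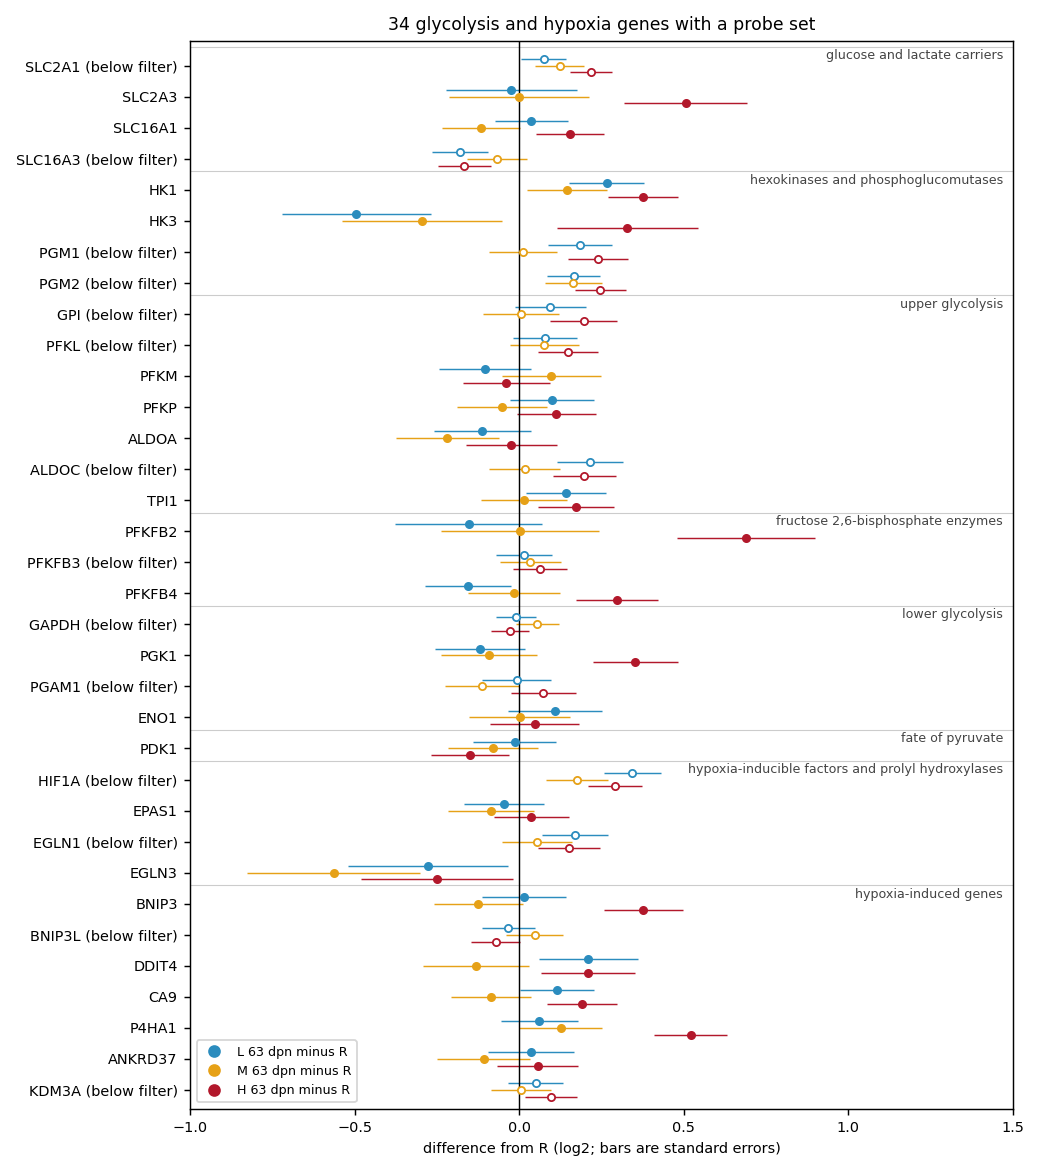
Differences of the 34 members with a probe set from R, on the log2 scale, for L, M and H samples at 63 dpn, ordered by role, with standard errors as bars; open symbols mark the 14 members below the filter, taken from the fit without a filter. The H differences of SLC2A3, PFKFB2, PGK1, BNIP3 and P4HA1 stand to the right of those of L and M, at 0.35 to 0.69, whereas HK1 and HIF1A are above 0 in all 3 diets.

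Among the carriers, SLC2A3, the high-affinity glucose carrier of leukocytes and neurons, differed most. Its value ran from 10.11 to 11.25 with a median of 10.75 in R, and at 63 dpn from 10.19 to 10.84 with a median of 10.69 in L samples. The M samples had 10.90, 10.44, 11.11, 10.41 and 10.42, and the H samples ran from 10.47 to 12.72 with a median of 10.82. Only H pigs 12 (12.72) and 11 (11.86) lay above the highest R sample, and the other 5 H pigs fell within the range of R. The difference of H from R was 0.51 (SE 0.19, q = 0.0920) and was not called, and with the 63 dpn arrays of these pigs left out it was 0.06. SLC16A1, a carrier of lactate and other monocarboxylates, had a difference of 0.15 from R, although 4 of the 7 H samples exceeded the highest R sample. Of the carriers below the filter, SLC2A1, a glucose carrier of many proliferating cells, had a difference of 0.22 (q = 0.0672) in the fit without a filter, with 5 of 7 H samples above the highest R sample. SLC16A3, the carrier by which strongly glycolytic cells export lactate, had differences of -0.18 for L, -0.07 for M and -0.17 for H.

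HK1, the hexokinase that most tissues express, was called higher in H than in R. It had values of 7.36 to 8.24 with a median of 7.91 in R and of 7.78 to 8.26 with a median of 8.14 in L samples. The M samples had 7.99, 8.02, 8.25, 7.97 and 7.76, and the H samples ran from 7.94 to 8.39 with a median of 8.25. Above the R mean lay 5 of 6 L, 4 of 5 M and 7 of 7 H samples, and 5 of the H samples lay above the highest R sample. The difference from R was 0.27 for L (SE 0.11, q = 0.387), 0.15 for M (SE 0.12, q = 0.999) and 0.38 for H (SE 0.11, q = 0.0441). Set against the mean of L and M of the same age, H was higher by 0.17 (SE 0.12, q = 0.427), less than the spread allows to be called. The call in H against R also ended with any of 13 of the 37 arrays left out, namely those of pigs 3, 4, 6, 8, 9, 11, 13, 15 and 18 at 28 dpn and of pigs 9, 11, 12 and 15 at 63 dpn, with q up to 0.143.

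HK3, a hexokinase found mainly in myeloid cells, ran from 8.55 to 10.86 in H samples and from 7.98 to 9.85 in R. Only H pigs 12 (10.86) and 11 (10.18) lay above the highest R sample, and the difference of H from R was 0.33 with these arrays and -0.08 without them. At 63 dpn its difference between H and the mean of L and M was 0.72 (SE 0.23, q = 0.233), and 0.31 without them, and in L against R it was -0.50. The phosphoglucomutases, which link glycogen to glycolysis, lay below the filter. PGM2 had 7.90 to 8.29 in H samples and 7.40 to 8.10 in R, and its differences from R were 0.17 for L, 0.16 for M and 0.25 for H. PGM1 had differences of 0.18 for L, 0.01 for M and 0.24 for H.

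In upper glycolysis, 4 members were tested. Of these, PFKM, PFKP (phosphofructokinase subunits), ALDOA (aldolase) and TPI1 (triosephosphate isomerase), 0 were called and 0 had P below 0.05 in H against R, and their differences ran from -0.04 to 0.17. GPI, which turns glucose phosphate into fructose phosphate, was below the filter and had a difference of 0.20 from R, but was higher in H samples at 63 dpn than in those at 28 dpn by 0.37 (q = 0.0283, without a filter), with changes of -0.04 in L and -0.07 in M. PFKL and ALDOC, the other members of these enzyme families, were also below it, with differences of 0.15 and 0.20. In ALDOC the L samples differed from R by as much, 0.22.

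Of the enzymes that set the level of fructose 2,6-bisphosphate, an activator of phosphofructokinase, 2 were tested and 0 were called in H against R by the probe set that stood for the gene. PFKFB2, the isoform that insulin and adrenaline signalling phosphorylates in heart muscle, had values of 5.73 to 6.80 with a median of 6.32 in R and of 5.65 to 6.40 with a median of 6.13 in L samples. Its values were 6.26, 6.13, 6.50, 6.39 and 5.89 in M samples and 6.18 to 8.99 with a median of 6.54 in H samples. As with SLC2A3, only pigs 12 (8.99) and 11 (7.34) lay above the highest R sample. The difference of H from R was 0.69 (SE 0.21, q = 0.0556), and with these arrays left out it was 0.20. A second probe set of nearly the same mean was called, with 0.71 (q = 0.0376). PFKFB4, which is induced by hypoxia in many cells, had a difference of 0.30 (SE 0.12, q = 0.123), with 3 of 7 H samples above the highest R sample, and one of 0.12 without the 63 dpn arrays of pigs 11 and 12. PFKFB3, the inducible isoform of proliferating cells, lay below the filter, with a difference of 0.06.

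In lower glycolysis, PGK1, the enzyme of the first ATP-forming step, stood out. It had 9.39 to 10.58 with a median of 10.08 in R and 9.64 to 10.12 with a median of 9.93 in L samples. The M samples had 10.12, 9.78, 10.09, 9.91 and 9.75, and the H samples ran from 10.02 to 11.02 with a median of 10.29. The groups overlapped, with 6 of 7 H samples above the R mean and 1 above the highest R sample. Its difference from R was -0.12 for L, -0.09 for M and 0.35 (SE 0.13, q = 0.0892) for H. Of its 8 other probe sets 1 was called, with 0.38 (q = 0.0498). ENO1 (enolase), GAPDH and PGAM1, the enzymes beside PGK1 in the pathway, had differences of 0.05, -0.03 and 0.07 between H and R, each with P above 0.05. GAPDH had 12.68 to 12.91 in H samples, within the 12.61 to 13.01 of R. PDK1, the kinase that holds pyruvate back from the mitochondria, was the tested member of pyruvate use and had a difference of -0.15 (q = 0.332).

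Of the HIF system, HIF1A, the oxygen-regulated subunit itself, lay below the filter because of its low spread, and its mean lay above that of R in all 3 diets. It had 9.27 to 9.99 in R, 9.83 to 10.28 in L samples, 9.74 to 10.13 in M samples and 9.78 to 10.22 in H samples. Every sample of 63 dpn lay above the R mean, 6 of 6 in L, 5 of 5 in M and 7 of 7 in H. In the fit without a filter the difference from R was 0.34 (q = 0.153) for L, 0.18 for M and 0.29 (q = 0.0575) for H, and was not called. EPAS1, which encodes the related subunit of endothelial cells and macrophages, had a difference of 0.04 between H and R. The prolyl hydroxylase EGLN1, the main oxygen sensor, had a difference of 0.15 without a filter. EGLN3, a hydroxylase that HIF itself induces, had negative differences in each diet, of -0.28 for L, -0.56 for M and -0.25 for H, none of them called, and its M samples ran from 8.24 to 9.93 where R ran from 9.10 to 10.38. Its lowest values, 8.41 in L pig 1, 8.24 in M pig 5 and 8.29 in H pig 18, came from the 3 arrays with the lowest values of the platelet list, -2.23, -1.55 and -2.37, where R ran from -0.73 to 0.83. Over the 37 arrays, after centring on the group means, its correlation with that list was 0.92 (rho 0.90), and 0.89 without L pig 1 and H pig 18 at 63 dpn. Whether platelets account for its differences was not tested.

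P4HA1 had the clearest difference of all members. It encodes the catalytic subunit of collagen prolyl hydroxylase and is a well known HIF target. Its values ran from 6.95 to 7.93 with a median of 7.52 in R and from 7.28 to 7.78 with a median of 7.60 in L samples, and the M samples had 7.76, 7.42, 7.87, 7.66 and 7.51. In H samples they were 7.89 in pig 3, 7.74 in pig 6, 8.04 in pig 9, 8.13 in pig 11, 8.60 in pig 12, 8.01 in pig 15 and 7.84 in pig 18. All 7 H samples lay above the R mean and 4 of them above the highest R sample. The mean was 8.04 ± 0.28 in H samples (SD, n = 7) and 7.51 ± 0.24 in R (SD, n = 19), and the difference was 0.52 (SE 0.11, q = 0.0165). For L it was 0.06 (SE 0.12) and for M 0.13 (SE 0.13). The call held with each of the arrays left out in turn except pig 12 at 63 dpn, without which q was 0.0893.

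BNIP3, a mitochondrial protein of mitophagy and a HIF target, followed at a smaller size. It had 7.97 to 8.83 with a median of 8.35 in R and 8.11 to 8.63 with a median of 8.34 in L samples. The M samples had 8.26, 8.32, 8.24, 8.47 and 7.81, and the H samples ran from 8.41 to 9.45 with a median of 8.68. All 7 H samples exceeded the R mean, though only pig 12 exceeded the highest R sample. Its difference from R was 0.01 for L, -0.12 for M and 0.38 (SE 0.12, q = 0.0629) for H. The other hypoxia-induced genes did not reach P of 0.05 in H against R. DDIT4, an inhibitor of mTOR signalling, had differences of 0.21 for L, -0.13 for M and 0.21 for H. CA9, a carbonic anhydrase of hypoxic cells, had one of 0.19, and ANKRD37 one of 0.06. Below the filter, BNIP3L, which removes mitochondria from maturing red cells, had a difference of -0.07, and KDM3A, a histone demethylase, one of 0.10.

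**Figure D2:**
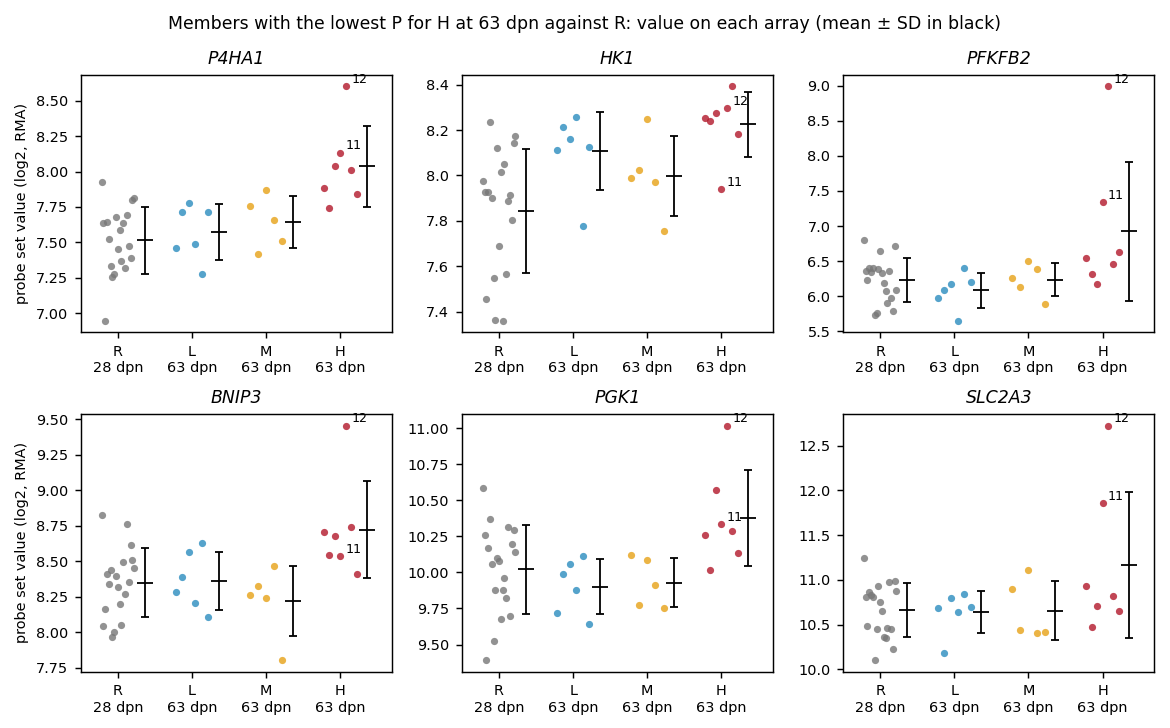
Log2 probe set values of the 6 members with the lowest P for H against R, 1 point per array, for R at 28 dpn and L, M and H at 63 dpn, with mean ± SD in black; the numbers 11 and 12 mark these H pigs. In P4HA1, 4 of 7 H samples lie above all R samples, whereas in PFKFB2 and SLC2A3 only pigs 11 and 12 do.

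Of the 19 pigs, 18 were sampled at both ages, among them all 7 H pigs, so that H at 63 dpn could also be set against the same H pigs at 28 dpn. Here 6 of the 20 members were called, all higher at 63 dpn, namely P4HA1, HK1, PGK1, BNIP3, PFKFB2 and SLC2A3, where 12.5% of all probe sets were called, 7.99% higher. Of all 3512 probe sets called in this comparison 2245 were higher, and 2730 of 3328 were after each array had been centred on its median. The 6 members were called higher in both, and of these P4HA1 passed the SD filter only with the H samples of 63 dpn included. P4HA1 had 7.74 to 8.60 in H samples at 63 dpn and 6.95 to 7.59 at 28 dpn, so that the ages did not overlap, and its difference was 0.71 (SE 0.12, q = 0.00237). HK1 had 7.94 to 8.39 at 63 dpn and 7.36 to 8.02 at 28 dpn, with only pig 11 inside the range of 28 dpn, and a difference of 0.54 (SE 0.12, q = 0.00592). The 4 others overlapped between the ages. PGK1 differed by 0.50 (SE 0.15, q = 0.0231), BNIP3 by 0.44 (SE 0.14, q = 0.0306), PFKFB2 by 0.77 (SE 0.26, q = 0.0344) and SLC2A3 by 0.62 (SE 0.23, q = 0.0469). In the fit without a filter, 9 of 34 were called where 9.77% of all probe sets were, and 4 of the 14 members below the filter were among them. These were HIF1A with 0.42 (q = 0.00639), GPI with 0.37 (q = 0.0283), EGLN1 with 0.33 (q = 0.0260) and PGM2 with 0.31 (q = 0.0204). L samples at 63 dpn against 28 dpn gave 0 called members with limma and 0 with P below 0.05, M samples gave 0 and 1, EGLN3 with -0.75, and 0% of all probe sets were called in either. In both diets, 0 members were called with Benjamini-Hochberg adjustment or unmoderated variances.

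Within single pigs the change followed the same members. P4HA1 was higher at 63 dpn in 2 of 6 L pigs, 2 of 5 M pigs and 7 of 7 H pigs, in the last by 0.41 to 1.02. HK1 was higher in 4 of 6 L pigs, 3 of 5 M pigs and 7 of 7 H pigs, in the last by 0.25 to 0.91. For these 2 genes every H pig moved the same way, while the L and M pigs were split. The pattern was not particular to them. Below the filter, EGLN1 was higher in 3 of 6 L pigs, 2 of 5 M pigs and 7 of 7 H pigs, and PGM2 in 4 of 6, 4 of 5 and 7 of 7. SLC16A1 was higher in 2 of 6 L pigs, 1 of 5 M pigs and 7 of 7 H pigs, but its difference in H of 0.29 was not called (q = 0.0699). PGK1 was higher in 1 of 6 L pigs, 1 of 5 M pigs and 5 of 7 H pigs. BNIP3, PFKFB2 and SLC2A3 were each higher in 2 of 6 L pigs, 2 of 5 M pigs and 6 of 7 H pigs, and in pig 12 they gained 1.26, 2.67 and 2.08. HIF1A did not separate the diets in this way, with 5 of 6 L pigs, 4 of 5 M pigs and 7 of 7 H pigs higher. HK3 was lower at 63 dpn in 6 of 6 L pigs, with changes of -1.42 to -0.12, and higher in 2 of 5 M pigs and 3 of 7 H pigs. With each pig as a block, the comparison of H with R reduces to this change within H pigs. Then 5 of 20 members were called, where 12.5% of all probe sets were called for this change without the block. The share over all probe sets with the block is not given here. The 5 were P4HA1 (q = 0.00433), HK1 (q = 0.0166), PFKFB2 (q = 0.0282), PGK1 (q = 0.0413) and SLC2A3 (q = 0.0462). BNIP3 had q = 0.0502 and lost its call at this step.

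**Figure D3:**
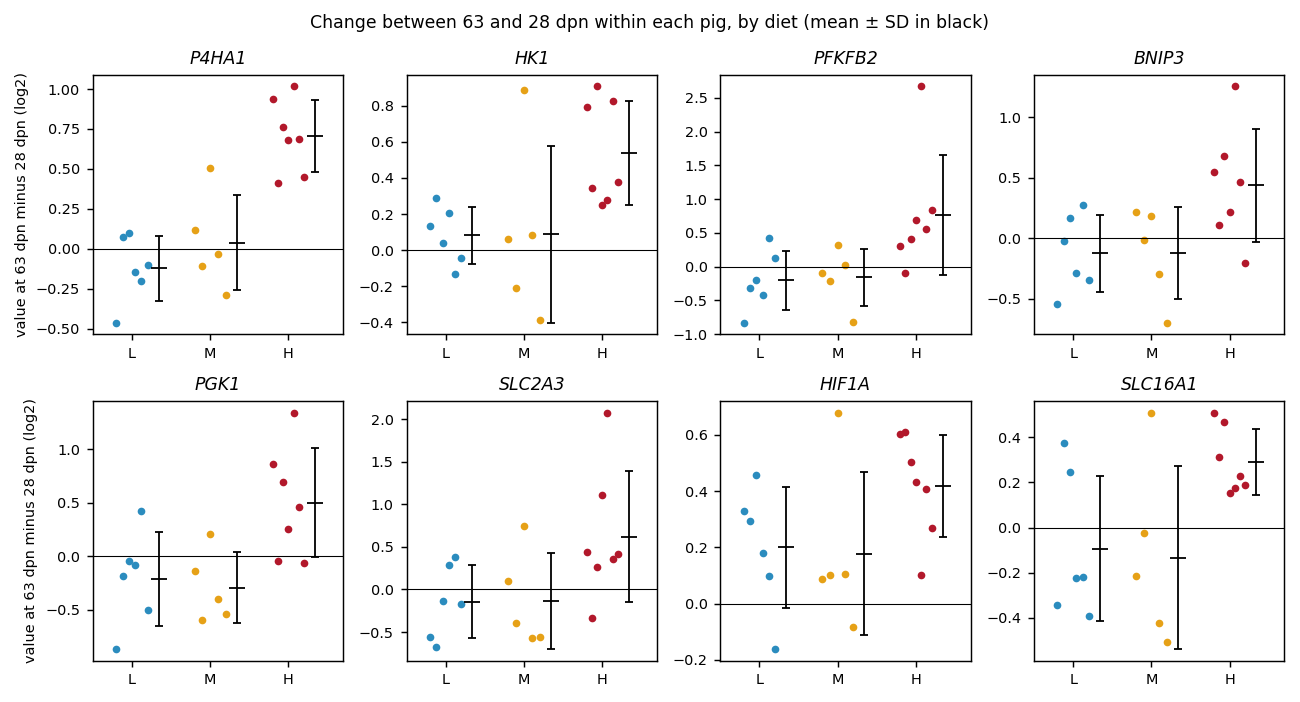
Change of 8 members between the ages in each pig, as the log2 value at 63 dpn minus that at 28 dpn, for 6 L, 5 M and 7 H pigs, with mean ± SD in black. P4HA1, HK1, HIF1A and SLC16A1 are above 0 in all 7 H pigs, and HIF1A is also above 0 in 5 of 6 L and 4 of 5 M pigs.

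The change with age in H was set directly against that in L and M, which is the test of a difference between the diets. Of the 20 members 0 were called with limma, as were 0% of all probe sets, while 8 members had P below 0.05, as did 20.1% of all probe sets, and all 8 had the larger change in H. With Benjamini-Hochberg adjustment 0 members were called and with unmoderated variances 2 were, for which the share over all probe sets is not given here. P4HA1 had a difference in change of 0.72 (SE 0.16, q = 0.0509), just above the threshold, and no probe set had a lower q. PGK1 followed with 0.70 (q = 0.0569), BNIP3 with 0.53 (q = 0.0702), HK1 with 0.43 (q = 0.0732), SLC16A1 with 0.41 (q = 0.0826) and SLC2A3 with 0.70 (q = 0.0995). PFKFB2 and PFKFB4 had 0.89 and 0.52. Without the 63 dpn arrays of pigs 11 and 12 the values were 0.40 for PFKFB2, 0.33 for PFKFB4 and 0.25 for SLC2A3, and 0.59 for P4HA1. In all, 19 of 20 members had a positive value with a median of 0.33, while the median over all probe sets was -0.0027. These counts give no independent support, because P4HA1, PFKFB4, CA9 and PDK1 passed the SD filter only with the H samples of 63 dpn. Without a filter, 30 of 34 members had a positive value with a median of 0.23, and the median over all probe sets was -0.02. In that fit 1 of 34 members was called, P4HA1, where 0.0985% of all probe sets were. Taken by age, H minus L and M gave -0.26 at 28 dpn and 0.17 at 63 dpn for HK1. For P4HA1 these values were -0.30 and 0.43. At 28 dpn, 3 of the 20 members had a positive value. How far the diets account for the differences in change was not tested.

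The diet groups were also compared before any diet was fed. At 28 dpn, H samples had lower values than the mean of L and M samples in 17 of 20 members, with a median difference of -0.10, and of -0.0034 over all probe sets. None of the differences was called with limma, nor with Benjamini-Hochberg adjustment or unmoderated variances, and 0% of all probe sets were called. P below 0.05 was reached by P4HA1 with -0.30 (SE 0.11, q = 0.193) and HK1 with -0.26 (SE 0.11, q = 0.211), which is 2 of 20 members where 13.1% of all probe sets had such a P. Below the filter 5 of 14 members also had P below 0.05, all lower in H, with EGLN1 at -0.29, GPI at -0.28, PGAM1 at -0.21, HIF1A at -0.20 and PFKFB3 at -0.20. Marker genes differed at that age as well, with 0 called. B cell genes had a median difference of -0.39, with 7 of 11 at P below 0.05, monocyte genes one of -0.26, with 12 of 14 lower in H, and erythroid genes one of 0.27, with 10 of 10 higher. Their part in the differences of the members was not tested. At 63 dpn the order was the other way for most members. Set against L and M samples of that age, by their mean, 17 of 20 had a positive difference in H with a median of 0.17, and 7 had P below 0.05, where 11.6% of all probe sets did, but 0 were called, as were 0% of all probe sets, and 0 with Benjamini-Hochberg adjustment or unmoderated variances. These 7 were PFKFB2 with 0.77, HK3 with 0.72, SLC2A3 with 0.52, PGK1 with 0.46, BNIP3 and P4HA1 with 0.43 each, and PFKFB4 with 0.38, all with q between 0.233 and 0.252. Without the 63 dpn arrays of pigs 11 and 12, PFKFB2 had 0.27 and SLC2A3 0.07, while P4HA1 had 0.29 and PGK1 0.34.

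Several members are represented by more than 1 probe set, which gives a further reading of the same RNA. All 9 probe sets of PGK1 were higher in H than in R, by 0.20 to 0.38, as were all 5 of SLC2A3, by 0.30 to 0.74, both of P4HA1, by 0.23 and 0.52, both of BNIP3, by 0.25 and 0.38, and all 3 of HIF1A, by 0.23 to 0.30. In PFKFB2 4 of 5 probe sets and in HK1 3 of 4 had positive differences, the lowest being -0.08 and -0.02. All 3 of PDK1 had negative differences, of -0.50 to -0.15. The probe sets of GPI, PGM2, EPAS1 and EGLN3 also disagreed in sign. The probe sets that carried the calls of P4HA1 and HK1 in H against R were the ones with the largest difference of their gene. When the probe set was picked only from those passing the filter, 2 members were called in H against R and 9 of 25 in H at 63 dpn against 28 dpn, where GPI and HIF1A (higher) and BNIP3L (lower) joined the 6 named above.

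Other genes of the same pathways moved in both directions. Of all probe sets, 1.77% were called higher and 0.324% lower in H against R. In H at 63 dpn against 28 dpn these shares were 7.99% and 4.51%. Of 53 further genes of glycolysis, glycogen and the pentose phosphate pathway 33 were tested, and in H against R 3 were called higher and 1 lower, with a median of 0.02. PGM2L1, which makes glucose bisphosphate, was higher by 0.70 (q = 0.0246), RPIA, an enzyme of the pentose phosphate pathway, by 0.42 (q = 0.0343) and GYS1, glycogen synthase, by 0.47 (q = 0.0422). BPGM, whose product bisphosphoglycerate lowers the oxygen affinity of haemoglobin, had a difference of -0.77 (q = 0.0343). PGM2L1 was also higher in L by 0.90 and in M by 1.20, and was the only gene of either list called there. In H at 63 dpn against 28 dpn 5 were called higher and 5 lower, with the lowest P in SLC2A10, a member of the glucose carrier family, at -0.51 (q = 0.0115) and RPIA at 0.51 (q = 0.0117). Of 40 further hypoxia genes 24 were tested, and 2 were called higher in H than in R and 0 lower, with a median of 0.06. These were BHLHE40, a HIF-induced transcription factor, with 0.90 (q = 0.0347) and RBPJ, the DNA-binding partner of Notch, with 0.35 (q = 0.0462). In H at 63 dpn against 28 dpn 7 were called higher and 1 lower, with the lowest P in RBPJ at 0.51 (q = 0.00681) and CREBBP, a coactivator of HIF and other factors, at 0.46 (q = 0.0160). The paper already lists RBPJ and CREBBP as higher in H than in R. Both lists were chosen with earlier results of these data known, so these calls give no independent support.

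The values of several members moved together with those of marker genes of blood cells, and in RNA of mixed blood cells more cells of a type and more RNA per cell cannot be told apart. The mean of the monocyte list, centred over all arrays, ran from -0.72 to 0.51 in R, and at 63 dpn from -0.31 to -0.03 in L, from -0.33 to 0.37 in M and from -0.22 to 1.34 in H samples. The highest value was that of H pig 12. Of 14 monocyte genes tested, 2 were called higher in H than in R, CD14 (0.78, q = 0.0478) and FGL2 (0.54, q = 0.0405), 12 had positive differences, and the median was 0.46. The neutrophil list ran from -0.29 to 1.54 in H samples, again highest in pig 12, and from -0.66 to 0.52 in R, with 0 of 13 genes called, 5 with P below 0.05 and a median of 0.47. The erythroid list was lowest in H pig 12, at -0.98, with 1 of 10 genes called lower, GYPC (-0.65, q = 0.0375), and a median of -0.35. Among T cell, B cell, NK and cytotoxic cell, dendritic cell and platelet genes, 0 of 12, 1 of 11, 0 of 13, 0 of 7 and 1 of 12 were called in H against R. Of all probe sets 2.09% were called there. In H at 63 dpn against 28 dpn, 6 members and 12.5% of all probe sets were called. Monocyte genes were called higher in 5 of 14 (median 0.59) and B cell genes in 4 of 11 (median 0.35). Called higher too were 2 of 13 NK and cytotoxic cell genes (median 0.49). Of the erythroid genes 6 of 10 were called lower (median -0.48), and 0 of 13 neutrophil genes were called (median 0.42).

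Over the 37 arrays, after centring on the means of the groups, the correlation with the monocyte list was 0.87 for SLC2A3, 0.82 for HK3, 0.81 for P4HA1, 0.79 for PGK1, 0.77 for PFKFB2, 0.75 for PFKFB4 and 0.64 for BNIP3. Spearman's rho for these was 0.83, 0.71, 0.80, 0.71, 0.68, 0.66 and 0.47, and without the 2 arrays farthest from the median of the list, H pig 12 at 63 dpn and M pig 8 at 28 dpn, r was 0.79, 0.72, 0.72, 0.68, 0.62, 0.60 and 0.44. For HK1 (0.33), EGLN1 (0.01) and HIF1A (-0.16) r was lower. With the neutrophil list r was 0.85 for SLC2A3, 0.82 for PFKFB2, 0.79 for HK3 and 0.66 for PFKFB4. It was 0.61 for PGK1, 0.59 for BNIP3, 0.53 for P4HA1 and 0.03 for HK1. The 2 arrays farthest from the median of that list were H pig 12 at 63 dpn and L pig 1 at 28 dpn. Without them r was, in the same order, 0.74, 0.67, 0.70, 0.43, 0.41, 0.33, 0.28 and 0.01. For SLC2A3, PFKFB2 and HK3 the likeness was thus to both lists, while for the others named that to the neutrophil list was weaker. Both lists were highest in H pig 12 at 63 dpn, and whether they tell the cell types apart was not tested. HIF1A was closer to the B cell list, with 0.70, as were GPI with 0.61 and HK1 with 0.53. EGLN1 had 0.60 with the B cell list and 0.64 with the T cell list, with which HIF1A had 0.53. BNIP3L was closest to the erythroid list, with 0.74. PDK1 ran opposite to the monocyte list, with -0.69, and to the neutrophil list, with -0.75. Among the members themselves the closest pair was SLC2A3 and PFKFB2 with 0.89, followed within lower and upper glycolysis by TPI1 and ENO1 with 0.83, and over all 561 pairs the median was 0.21. These correlations describe 37 arrays from 19 pigs that share hybridisation and normalisation, and they are given without a test.

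**Figure D4:**
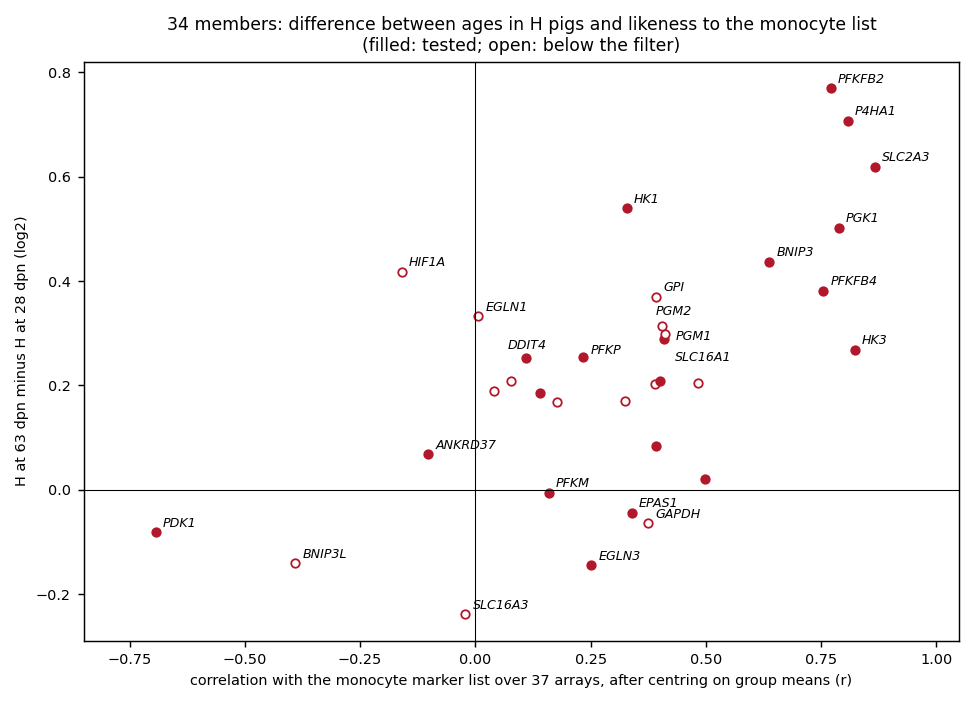
The 34 members by their correlation with the monocyte marker list over 37 arrays after centring on group means (horizontal) and their log2 difference between 63 and 28 dpn in H pigs (vertical); filled points were tested and open points lay below the filter, and points within the dense middle carry no name. PFKFB2, P4HA1, SLC2A3 and PGK1 lie at the upper right with correlations of 0.77 to 0.87, HK1 and HIF1A have differences of 0.54 and 0.42 at correlations of 0.33 and -0.16.

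With the mean of the monocyte list as a covariate, 0 of the 20 members were called in H against R or in H at 63 dpn against 28 dpn, where 0.0249% and 0.00712% of all probe sets were called. In the comparison of the ages in H, SLC2A3 then had a difference of 0.05, PGK1 of 0.17, PFKFB2 of 0.19 and BNIP3 of 0.20, where they had 0.62, 0.50, 0.77 and 0.44 without the covariate. P4HA1 had 0.45 (q = 0.0571) and HK1 0.43 (q = 0.116), and these were the largest differences of the 6. With the neutrophil list, P4HA1 (0.58, q = 0.00849) and HK1 (0.52, q = 0.0189) were called, and with the erythroid list P4HA1 (0.57, q = 0.0483) was, of 4.92% and 0.107% of all probe sets. With the B cell list, a covariate chosen after the data had been seen, P4HA1 was the member called, with 0.62 (q = 0.0398), of 0.0890% of all probe sets, and HK1 had 0.41 (q = 0.0982). In H against R with that list, P4HA1 had 0.46 (q = 0.0376) and HK1 0.30 (q = 0.0964). Without the 63 dpn arrays of pigs 11 and 12, P4HA1 (0.57, q = 0.0174) and HK1 (0.58, q = 0.0189) were again the members called, of 3.14% of all probe sets, while PFKFB2 had 0.28 and SLC2A3 0.17. In H against R, 0 members were called without these arrays, with P4HA1 at 0.39 (q = 0.177) and HK1 at 0.42 (q = 0.168). Whether the proportions of these cell types account for the differences was not tested.

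**Figure D5:**
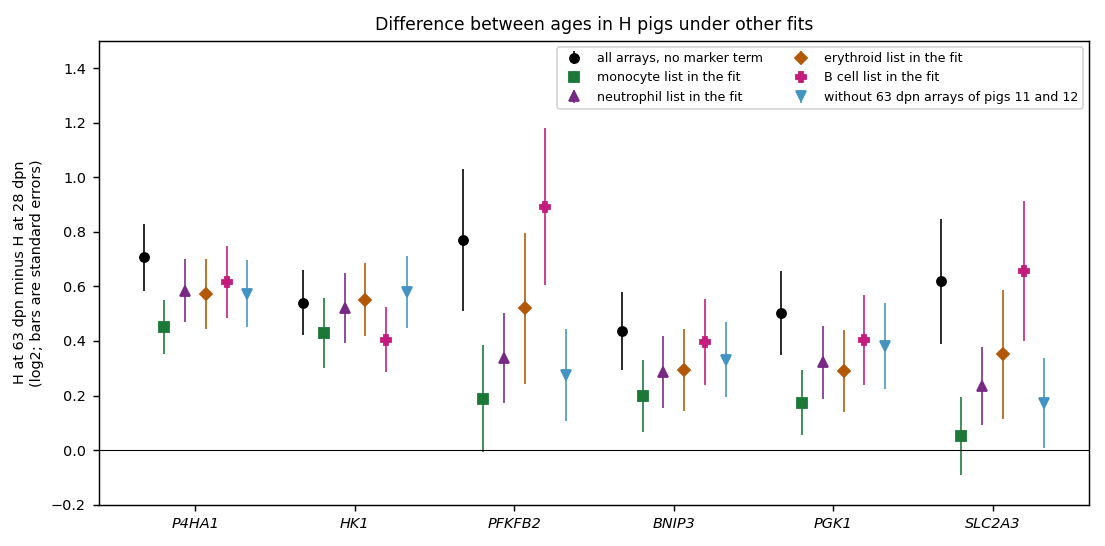
Log2 difference between 63 and 28 dpn in H pigs, with standard errors, for the 6 members called in that comparison, in the fit of all arrays, with the monocyte, neutrophil, erythroid or B cell list as a covariate, and without the 63 dpn arrays of pigs 11 and 12. P4HA1 and HK1 stay between 0.41 and 0.71 in every fit shown, whereas SLC2A3 runs from 0.05 to 0.66.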

How the data were processed

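RNA of PBMC from 19 pigs was hybridised by the authors to 37 Affymetrix snowball arrays, read with GCOS 1.1.1 (named in the submitters' processing notes) and normalised by RMA. The deposited table holds the authors' log2 values from this step, for 47845 probe sets, and no raw intensities were used. RMA equalises the distributions of the arrays, so an overall shift of the RNA of a sample would not be seen. Array medians lay between 5.25 and 5.42, and 0 columns belonged to no sample. The number of arrays limits the precision. Groups, ages, pig numbers and sex came from the sample labels. Replicates are separate pigs.

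After removal of 123 control probe sets, 28086 (58.7%) passed the filter of the study. The tests were run with limma 3.58.1 in R 4.3.3 (lmFit, eBayes, two-sided) on all arrays. Comparisons with R, and of H with L and M at 63 dpn, used the groups R, L, M and H with sex, and the others used diet by age as 6 groups with sex. The sire of the study's model is not given in the labels used here. Storey's q was computed over all probe sets tested (lambda 0.05 to 0.95 in steps of 0.05, a spline with 3 degrees of freedom). Every adjusted value in the text comes from these limma fits.

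Members, role groups, pathway lists and cell type markers, and the tests, were chosen with earlier results of these data known. All 40 members are reported by the probe set of the rule, with full statistics for called members and values by array for the 6 of lowest P there (H against R). Of the 2 lists of other pathway genes, all called genes of H against R and the 2 with the lowest P of each other comparison are named. Genes were named through the platform annotation, with older symbols replaced.

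By the labels, arrays that carry 1 pig number at both ages are of 1 animal, so the numbers pair the samples. Their deviations from the group means correlated at -0.162 to 0.235 over 18 pigs, over 0.1 in 8, and the consensus correlation within pigs was -0.00548 with 4 groups and -0.00581 with 6. The model of the study has no pig term, so the pig entered only among the alternatives. These were also another adjustment of P, other filters, unmoderated variances, array weights, no sex term, other normalisations, marker lists as covariates, arrays left out, only the groups compared, and another choice of probe set. The fits were tested on simulated data first.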

Additional observations from a re-analysis of the deposited data

Results flagged for a closer look

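Within the groups of 63 dpn, single arrays stood far from the others in 8 of the 60 groups of a tested member. The rule flags about 1 in 20 groups by chance where the groups are independent. These groups share arrays, and PFKFB4 and PDK1 passed the SD filter only with the H samples of 63 dpn. No comparison with that rate is therefore made. H pig 12 accounted for 4 of the 8. It had the highest value of PFKFB2, 8.99 where the other H samples ran from 6.18 to 7.34, of BNIP3, 9.45 where the others ran from 8.41 to 8.74, and of PFKFB4, 8 where the others ran from 6.76 to 7.23. It had the lowest value of PDK1, 8.84 where the others ran from 9.66 to 10.27. The same array had the highest monocyte and neutrophil list values and the lowest erythroid list value of the H samples, and whether these account for its values was not tested.

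The other 4 arrays were L samples of 4 different pigs. Pig 4 had the lowest SLC2A3, 10.19 where the others ran from 10.64 to 10.84, and pig 17 the lowest HK1, 7.78 where the others ran from 8.11 to 8.26. Pig 1 had the lowest ALDOA, 5.88 where the others ran from 6.58 to 6.96, and pig 10 the highest DDIT4, 7.78 where the others ran from 7.01 to 7.21. That array of pig 1 had a platelet list value of -2.23. Over the 37 arrays, after centring on the group means, ALDOA had a correlation of 0.81 (rho 0.75) with the platelet list. It was 0.67 without L pig 1 and H pig 18 at 63 dpn. Whether platelets account for the ALDOA value was not tested.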

How the results depend on the processing

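The share of all probe sets called moved with the setting as well, so a changed count is not by itself a result about the members. Below, shares are given for the main fit and the fit without a filter. The counts of the other settings are therefore not compared with a share. In H against R, 2 members were called, where 2.09% of all probe sets were, and 0.895% without a filter. The count was 1 with Benjamini-Hochberg adjustment, no filter, array weights, repeated quantile normalisation or only the groups compared, 1 with the B cell list (chosen after the data had been seen), 4 with each array centred on its median, 5 with the replicate block of the pig as a fixed effect, and 0 with the monocyte, erythroid or neutrophil list as a covariate or without the 63 dpn arrays of pigs 11 and 12. With 1 array left out it ran from 0 (H pig 12 at 63 dpn) to 6 (H pig 6 at 63 dpn), and was 4 without L pig 1 at 28 dpn. In H at 63 dpn against 28 dpn, 6 members were called, where 12.5% of all probe sets were, and 9.77% without a filter. The count was 3 with Benjamini-Hochberg adjustment or array weights, 2 with the neutrophil list, only the groups compared or without pigs 11 and 12, 1 with the erythroid or the B cell list and 0 with the monocyte list. With 1 array left out it ran from 2 (H pig 3 at 28 dpn or H pig 12 at 63 dpn) to 8 (H pig 3 at 63 dpn), and was 3 without H pig 9 at 28 dpn. In that comparison the calls of P4HA1 and HK1 held with each array left out, PGK1 lost its call without 2 of the 37 arrays, BNIP3 without 3, PFKFB2 without 6 and SLC2A3 without 15. For the change with age in H against L and M, 0 members were called, where 0% of all probe sets were, and 0.0985% without a filter. The count was 1 with no filter, array weights, no sex term or arrays centred on their median and 2 with the stricter filter or unmoderated variances, and ran from 0 to 6 (M pig 13 at 63 dpn) with 1 array left out, with 4 without L pig 10 at 63 dpn. The pig as a random effect changed no call of the named members. The other 6 comparisons gave 0 called members in every setting, and 0 differences of a called member changed sign. The cause of these changes was not tested beyond what each setting itself removes.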
